A study of Mus musculus with 2 samples.

Results

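The interleukin-1 family described here comprises 10 genes, taken as the rows with the symbols Il1a, Il1b, Il1rn, Il18, Il33, Il1r1, Il1r2, Il1rap, Il1rl1 and Il18r1, out of 27998 gene symbols counted in both libraries. All 10 symbols were present in the 2 tables. The data are single-cell RNA counts of non-myocytes from the heart ventricles of 2 wild-type C57BL/6 mice aged 10 to 12 weeks, with 1 droplet library per mouse and no treatment, injury or second genotype. With 1 group, genes are compared across the cell types of each heart. Ventricles of perfused hearts were broken up by pipetting, and the suspension lost its myocytes, clumps, red cells and dead cells before capture, so shares of cells are not shares of the tissue. Nothing in the labels gives the sex of the animals.

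Cytokines of this family are made as leaderless proteins. IL-1β and IL-18 are cut by inflammasome caspases before release, whereas IL-33 is a nuclear protein that is released from damaged cells and acts as an alarm signal. IL-1α and IL-1β bind IL1R1 together with the shared chain IL1RAP, IL-33 binds ST2 (the product of Il1rl1) with the same shared chain, and IL-18 binds IL18R1 with IL18RAP. Il1rn encodes a receptor antagonist and Il1r2 a decoy receptor without signalling function. In the heart the pathway is best known from infarction and pressure overload, where IL-1 acts on fibroblasts and endothelium and the IL-33 and ST2 pair has been studied in fibroblasts and in the blood as soluble ST2.

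Each captured RNA molecule carries its own short barcode (UMI), so a UMI count is a count of molecules. Levels are given as CPM, the UMIs of a gene per 1000000 UMIs summed over all cells of a class in 1 mouse. Classes were gated on UMIs of marker genes in each cell, and none of the 10 genes entered a gate. Of 12244 cells kept, mouse 1 and mouse 2 held 2964 and 2361 macrophages (C1qa, C1qb and C1qc summing to at least 15 UMIs), 1858 and 1307 fibroblasts (Dcn at least 5), 959 and 1300 endothelial cells (Pecam1, Cdh5 and Egfl7 summing to at least 2), 101 and 86 T cells (Cd3d, Cd3e and Cd3g summing to at least 2), 72 and 2 neutrophils (S100a8 and S100a9 summing to at least 50) and 9 and 25 dendritic cells (Cd209a at least 1 with a C1q sum of at most 10). Median depth per cell was 2833 and 2616 UMIs in macrophages, 2754.5 and 2471 in fibroblasts, 1480 and 1421 in endothelium and 1111 in the neutrophils of mouse 1. Cells passing more than 1 gate (240) were left out, and 960 cells passed none. Markers outside the gates were highest in the class they mark for 6 of 6 macrophage, neutrophil, fibroblast and endothelial genes, 3 of 3 T cell genes and 5 of 6 dendritic cell genes. Of the kept cells, 51 barcodes occurred in both libraries, 13 of them in the same class, and both copies were kept.

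The family was captured sparsely. Its 10 genes gave 4162 UMIs in the kept cells, of which Il1b contributed 1553, Il1r1 741, Il18 391, Il33 369, Il1rl1 369, Il1rap 253, Il1r2 238, Il1rn 167, Il18r1 80 and Il1a 1. A share of cells with a UMI is therefore mostly a measure of capture, and the CPM over all cells of a class is the level used for comparison. Intervals beside CPM are exact 95% Poisson intervals of the count, those beside shares are exact 95% Clopper-Pearson intervals, and both cover counting error only. Because each class of each mouse is 1 sum, tests compare sums and not cells. With the mouse as a block in the fit, the p-values rest on how class differences vary between the 2 animals. That spread is shared by the classes of a fit and moderated towards a trend over all genes. The fit of 5 classes had 4 residual and a median of 114 prior degrees of freedom, so its small p-values draw mostly on other genes. The same limit holds for the fits of subsets within a class. Residual and median prior degrees of freedom were 2 and 20 for macrophages and 1 and 13.5 for endothelium. For fibroblast subsets they were 1 and infinite, so the spread there came from the trend over all genes.

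**Figure D1:**
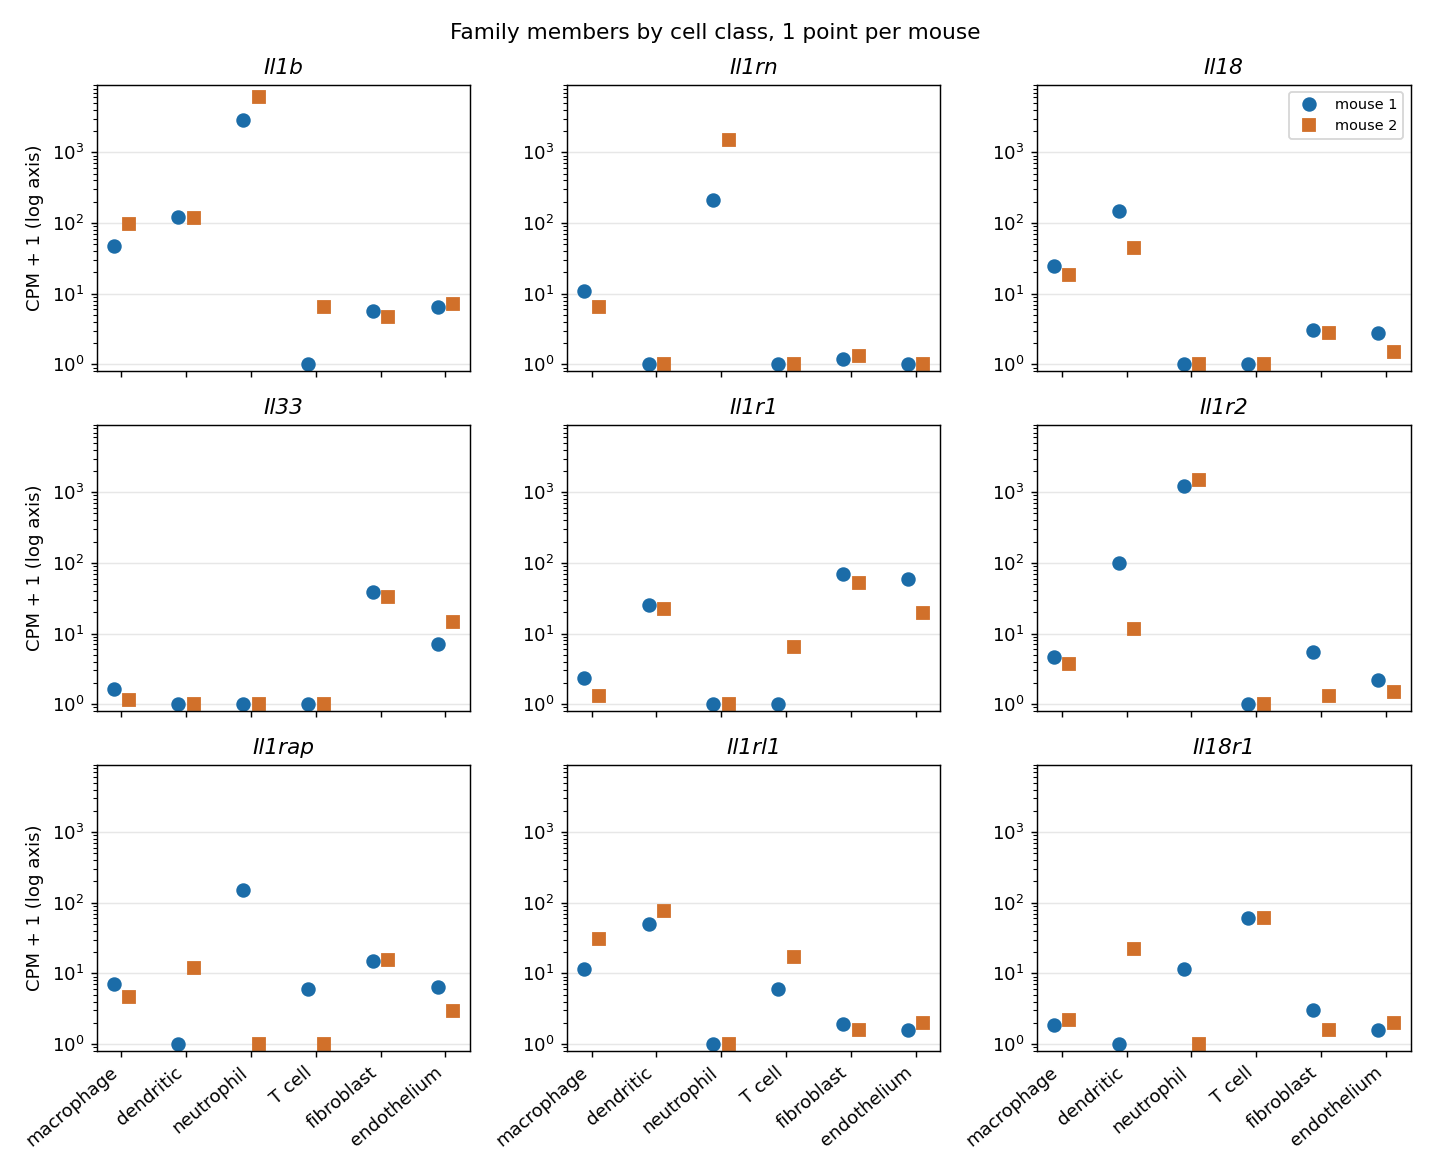
CPM plus 1 on a log axis (vertical) of 9 members in 6 cell classes (horizontal), with a circle for mouse 1 and a square for mouse 2; values at 1 are classes without a UMI. Il1b and Il1r2 were highest in neutrophils (72 cells in mouse 1, 2 in mouse 2), Il33 and Il1r1 in fibroblasts and Il18r1 in T cells, while dendritic points rest on 9 and 25 cells.

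Across the 5 classes other than neutrophils (macrophages, dendritic cells, T cells, fibroblasts and endothelium), 9 of the 10 members passed the filter on low counts, all but Il1a. Dendritic cells were tested with the rest although the mice held only 9 and 25 of them. A call required a Benjamini-Hochberg adjusted p below 0.05 over the 11498 genes tested and at least a 2-fold difference in edgeR's quasi-likelihood test with the mouse as a block. Members were called 40 times over the 10 pairwise contrasts. Macrophages against fibroblasts gave 7 of 9 members, beside 38.6% of all genes tested, and macrophages against endothelium gave 7 of 9 beside 34.5%. Fibroblasts and endothelium were separated by 2 of 9 members beside 29.8% of all genes. T cells differed from macrophages in 3 members (22.4% of all genes), from fibroblasts in 4 (32.1%) and from endothelium in 4 (28.3%). Dendritic cells differed from macrophages in 1 member (5.78%), from T cells in 3 (6.13%), from fibroblasts in 5 (18.2%) and from endothelium in 4 (17.4%).

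Il1b, the gene of IL-1β, lies on chr2:129364570-129371139 on the minus strand (mm10, GENCODE), and Il1a on chr2:129299610-129309972 on the same strand. Their products bind the same receptor. Kept cells gave 1553 UMIs of Il1b and 1 UMI of Il1a, and all barcodes of both tables gave 6 UMIs of Il1a. The only kept cell with an Il1a UMI was a macrophage of mouse 2. A count of 0 in the 2964 macrophages of mouse 1 allows up to 0.41 CPM there, the upper limit of the Poisson interval. The 250 bases before each annotated start site are shown for both genes because 1 was captured widely and the other almost nowhere (RefSeq, GRCm38.p6, minus strand, chr2:129309973-129310222 for Il1a and chr2:129371140-129371389 for Il1b). Capitals mark matches, on either strand, to the letters TATAAA (the TATA box), GAGGAA (PU.1 and ETS core), TGACTCA (AP-1), AGATAA (bound by GATA factors) and TTGCNNAA (C/EBP).
Il1a: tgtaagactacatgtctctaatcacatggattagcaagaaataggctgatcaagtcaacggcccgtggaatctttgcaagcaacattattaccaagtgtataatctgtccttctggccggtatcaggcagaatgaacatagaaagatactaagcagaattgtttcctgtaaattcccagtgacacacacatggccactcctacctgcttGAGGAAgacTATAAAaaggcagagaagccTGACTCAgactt
Il1b: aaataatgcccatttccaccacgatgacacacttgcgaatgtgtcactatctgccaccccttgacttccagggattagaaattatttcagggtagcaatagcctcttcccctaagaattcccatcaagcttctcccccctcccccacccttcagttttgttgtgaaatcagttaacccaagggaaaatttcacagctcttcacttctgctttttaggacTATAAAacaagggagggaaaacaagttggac
Both windows hold TATAAA close before the start site, at 32 bases in Il1a and 31 in Il1b, a hexamer found in 12.4% of all 32851 windows of this length. Il1a also held GAGGAA (23.3% of all windows) and TGACTCA (4.46% of all windows). A match is a description of letters and not a bound site.

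Neutrophils, short-lived granulocytes, had the highest Il1b level of any class. The 72 neutrophils of mouse 1 held 272 Il1b UMIs, 2902 CPM (interval 2567 to 3268), with at least 1 UMI in 62 cells or 86.1% (75.9 to 93.1). Mouse 2 had only 2 neutrophils, both with Il1b, and their 12 UMIs correspond to 5988 CPM (3094 to 10459.9). Pooled over both mice, the neutrophil level was 44.1-fold that of macrophages (counting interval 38.5 to 50.3), but with 2 cells in mouse 2 no test was made. Neutrophils were 1.10% of the kept cells in mouse 1 and held 32.0% of all Il1b UMIs there, against 0.035% of cells and 1.70% of Il1b UMIs in mouse 2. Levels per neutrophil were high in both animals, while the number of neutrophils was not.

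Macrophages held 49.1% of the Il1b UMIs of kept cells in mouse 1 and 90.5% in mouse 2. Their level was 45.9 CPM (41.6 to 50.6) in mouse 1 and 96.8 CPM (89.4 to 104.6) in mouse 2, or 71.4 ± 36.0 (SD, n = 2). Dendritic cells stood at 122 CPM on 5 UMIs and 118 CPM on 11 UMIs, 9 of the latter in 1 cell. Fibroblasts followed at 4.73 and 3.63 CPM, endothelium at 5.40 and 6.23 CPM, and T cells at 0 and 5.42 CPM (1 UMI). The difference between macrophages and dendritic cells was not called (log2 difference -0.36 ± 0.43 (SE), adjusted p = 0.761). Both stood above fibroblasts, endothelium and T cells without overlap between the mice. Macrophages exceeded fibroblasts by 3.98 ± 0.25 on the log2 scale (adjusted p = 6.39e-30) and endothelium by 3.72 ± 0.29 (adjusted p = 3.75e-23). Endothelium, fibroblasts and T cells, next to each other in the order, were not separated. In fibroblasts 1.35% and 0.918% of cells had an Il1b UMI, and in endothelium 0.938% and 0.923%, never more than 2 UMIs in a cell. Whether these low shares are background or expression was not tested. In macrophages the share was 8.84% and 12.9%. With cells thinned to 1000 UMIs, and shallower cells left out (9 and 48 macrophages, 13 and 40 fibroblasts, 51 and 187 endothelial cells), the macrophage share was 3.93% and 7.26%, against 0.488% and 0.474% in fibroblasts and 0.771% and 0.539% in endothelium, so macrophages stayed highest of the 3 at equal depth. Macrophages had up to 8 and 16 Il1b UMIs in a cell, and the 1% of macrophages with most Il1b held 27.6% and 27.3% of the macrophage total.

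**Figure D2:**
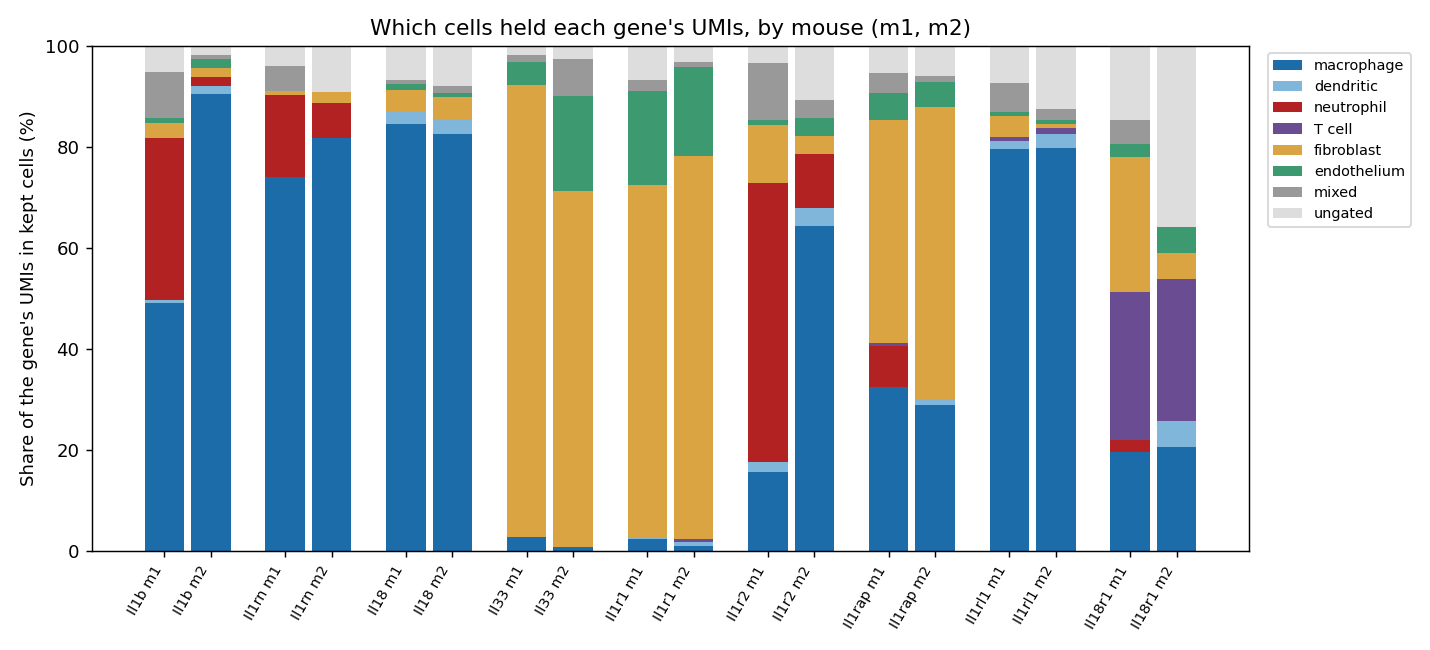
Stacked bars give the share (%, vertical) of each gene's UMIs in kept cells that fell in each class, with 2 bars per gene for mouse 1 (m1) and mouse 2 (m2) and grey for cells passing several gates or none. For Il1b, neutrophils took 32.0% in mouse 1 and 1.70% in mouse 2, and macrophages 49.1% and 90.5%; for Il33 fibroblasts took 89.5% and 70.7%.

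Within macrophages Il1b was uneven. Cells with Timd4 and Lyve1 UMIs summing to at least 2, markers of long-lived resident macrophages, numbered 1796 and 975, cells with at least 2 Ccr2 UMIs, the chemokine receptor of monocyte-derived cells, numbered 131 and 112, and 1016 and 1265 had neither. Il1b was 15.5 and 20.3 CPM in the Timd4/Lyve1 cells, 88.9 and 66.2 CPM in the Ccr2 cells and 106 and 176 CPM in the cells with neither. Both mice showed the resident-marked cells lowest, with no overlap with the other subsets. The difference was -2.23 ± 0.27 (log2, SE) against Ccr2 cells (adjusted p = 1.89e-06) and -2.98 ± 0.15 against cells with neither (adjusted p = 1.23e-12). Cells with neither marker were higher than Ccr2 cells in both mice, by 0.75 ± 0.20 on the log2 scale (adjusted p = 0.0256), a difference below the 2-fold limit for a call. Because cells with neither marker are also numerous, they held 32.6% and 78.0% of all Il1b UMIs in kept cells. Monocyte markers (Ly6c2, Plac8, Chil3, Ccr2 and Fn1) summed to 1393 and 1091 CPM in the Ccr2 cells, a sum that includes the gating gene, to 45.9 and 25.1 CPM in the cells with neither and to 15.1 and 9.96 CPM in the Timd4/Lyve1 cells. The 6 dendritic markers, all detected in each subset, summed to 8025 and 11655 CPM in the Timd4/Lyve1 cells, 43576 and 46964 CPM in the Ccr2 cells and 30413 and 31578 CPM in the cells with neither. Nearly all of each sum was the single gene Cd74, at 7706 and 11345, 43106 and 46652, and 30149 and 31300 CPM in that order. The part of these markers in the Il1b difference was not tested. Cells outside all 6 gates that passed a monocyte gate (70 and 13 cells) had 131 and 22.4 CPM on 27 and 1 UMIs.

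The macrophage level of Il1b was 2.11-fold higher in mouse 2 than in mouse 1 (counting interval 1.86 to 2.39). Within subsets the ratio of mouse 2 to mouse 1 was 1.67 (1.44 to 1.93) in cells with neither marker, 1.31 (0.93 to 1.83) in Timd4/Lyve1 cells and 0.745 (0.446 to 1.22) in Ccr2 cells. The cells with neither marker were also a larger part of the macrophages in mouse 2, 1265 of 2361 against 1016 of 2964. With 1 library per mouse, the animal and the library cannot be told apart.

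Il1rn encodes the IL-1 receptor antagonist, which occupies IL1R1 without signalling. It lies on chr2:24336853-24351494 on the plus strand, and counts of transcript ends do not separate its secreted and intracellular forms. Neutrophils again had the highest level, 213 CPM in mouse 1 (20 UMIs in 17 of 72 cells) and 3 UMIs in the 2 cells of mouse 2. Macrophages had 10.0 CPM (8.07 to 12.3) in mouse 1 and 5.47 CPM (3.83 to 7.57) in mouse 2, 7.75 ± 3.22 (SD, n = 2). Fibroblasts held 1 UMI in each mouse, and dendritic cells, T cells and endothelium held none. Macrophages exceeded fibroblasts by 4.96 ± 0.71 on the log2 scale (adjusted p = 8.61e-10) and were at least 10.1-fold above endothelium, with the floor set at 3 counts over both mice. Against T cells the same bound was at least 1.05-fold, and in dendritic cells a level like that of macrophages was not detectable at this depth. Ccr2 macrophages had 26.5 and 9.81 CPM on 14 and 4 UMIs, Timd4/Lyve1 cells 8.60 and 4.98 CPM, and cells with neither 10.3 and 5.46 CPM. The Ccr2 cells were highest in both mice, and their difference from Timd4/Lyve1 cells was called (-1.53 ± 0.42 for Timd4/Lyve1 minus Ccr2, adjusted p = 0.0160), though not by DESeq2 (adjusted p = 0.120) or without the mouse as a block (adjusted p = 0.257). Il1b was captured in 262 and 305 macrophages and Il1rn in 79 and 33, and 6 cells in each mouse held both. In the neutrophils of mouse 1, 15 of the 17 cells with Il1rn also held Il1b, as did 62 of all 72. With capture this sparse in macrophages, these counts do not show whether agonist and antagonist share cells.

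The decoy receptor gene Il1r2 was also highest in neutrophils. Mouse 1 neutrophils held 116 UMIs, 1238 CPM, in 55 of 72 cells, and 46 of the 72 held both Il1b and Il1r2. Mouse 2 had 3 UMIs in 1 of its 2 neutrophils. Pooled over mice, the neutrophil level was 382-fold that of macrophages (counting interval 273 to 541), with no test. Macrophages had 3.63 and 2.74 CPM, endothelium 1.20 and 0.479 CPM on 2 and 1 UMIs, T cells none, and dendritic cells 97.8 and 10.8 CPM on 4 UMIs of 1 cell and 1 UMI. Macrophages were called above endothelium (2.02 ± 0.89 on the log2 scale, adjusted p = 0.0492), but not by DESeq2 (0.0850), without the mouse as a block (0.137) or with stricter gates (0.237). Dendritic cells were called above T cells, at least 4.82-fold by counting, and that call was lost without the block (adjusted p = 0.192) and with stricter gates (0.0574). In macrophage subsets Il1r2 was 1.89 and 0.66 CPM in Timd4/Lyve1 cells, 9.45 and 7.36 CPM in Ccr2 cells and 6.11 and 4.18 CPM in cells with neither. Timd4/Lyve1 cells were lowest in both mice, and both differences were called (-2.63 ± 0.79 against Ccr2, adjusted p = 0.0281, and -1.91 ± 0.51 against neither, adjusted p = 0.0141). Neither call held without the mouse as a block (adjusted p = 0.125 and 0.327), and the first was lost with stricter gates (adjusted p = 0.839).

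Il1r2 in fibroblasts differed between the animals. Mouse 1 had 24 UMIs in 22 of 1858 fibroblasts (4.54 CPM) and mouse 2 had 1 UMI in 1307 (0.30 CPM), a ratio of 15.0 (counting interval 2.45 to 618). The neutrophil genes S100a8 and S100a9 moved the same way in fibroblasts, with 507 UMIs in mouse 1 and 8 in mouse 2. Fibroblasts of mouse 1 held 47.3 UMIs of Il1r2 per 1000 UMIs of S100a8 and S100a9, against 4.81 in the neutrophils of that mouse, and 1.04 UMIs of Il1b per UMI of Il1r2 against 2.35 in neutrophils. Endothelium of mouse 1, with 183 UMIs of S100a8 and S100a9, had 2 of Il1r2. For Il1r2 per 1000 UMIs of S100a8 and S100a9, macrophages of mouse 1 stood at 35.1 and endothelium at 10.9. The part of neutrophil RNA in the fibroblast counts was not tested.

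Il18, on chr9:50554827-50581840 on the plus strand, encodes a cytokine that is stored as an inactive precursor and acts on lymphocytes. Macrophages held 84.6% and 82.6% of its UMIs. Their level was 23.6 CPM (20.5 to 26.9) in mouse 1 and 17.3 CPM (14.3 to 20.8) in mouse 2, 20.4 ± 4.41 (SD, n = 2). Dendritic cells had 147 and 43.0 CPM on 6 and 4 UMIs, fibroblasts 2.08 and 1.81 CPM, endothelium 1.80 and 0.479 CPM, and neither T cells nor neutrophils had a UMI. Macrophages exceeded fibroblasts by 3.47 ± 0.37 on the log2 scale (adjusted p = 3.39e-15) and endothelium by 4.30 ± 0.52 (adjusted p = 2.26e-12). Against T cells, at 0 in both mice, they were at least 2.70-fold higher. Neighbours in the order (dendritic cells and macrophages, adjusted p = 0.110; fibroblasts and endothelium, adjusted p = 0.445) were not separated. The subsets were closer together than for Il1b: 20.98 and 14.6 CPM in Timd4/Lyve1 cells, 43.5 and 19.6 CPM in Ccr2 cells and 26.0 and 19.9 CPM in cells with neither. Timd4/Lyve1 minus Ccr2 was -0.93 ± 0.30 on the log2 scale (adjusted p = 0.0450), below the 2-fold limit. Il1b and Il18 were both captured in 22 and 21 macrophages.

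**Figure D3:**
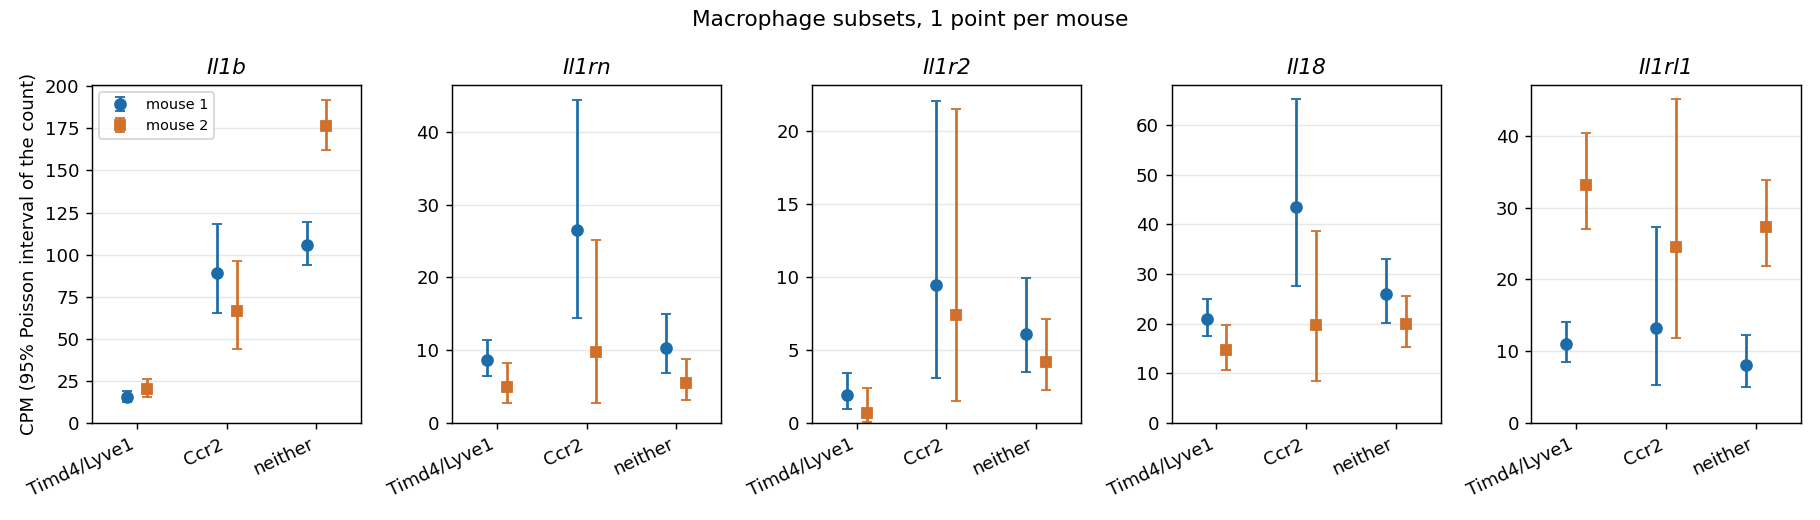
CPM (vertical, linear axis from 0) of 5 members in 3 macrophage subsets, with a circle for mouse 1, a square for mouse 2 and bars for the 95% Poisson interval of the count. Il1b in Timd4/Lyve1 cells (15.5 and 20.3 CPM) lay under the other subsets in both mice, while Il1rl1 separated the mice more than the subsets.

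Il33 was mainly a fibroblast gene here. It lies on chr19:29925114-29960718 on the plus strand and has 2 RefSeq start sites in the table of promoters. Both windows of 250 bases are shown because the gene has alternative first exons that transcript-end counts cannot tell apart (GRCm38.p6, plus strand, chr19:29924863-29925112 for the first and chr19:29945540-29945789 for the second, capitals as above).
Il33 first start: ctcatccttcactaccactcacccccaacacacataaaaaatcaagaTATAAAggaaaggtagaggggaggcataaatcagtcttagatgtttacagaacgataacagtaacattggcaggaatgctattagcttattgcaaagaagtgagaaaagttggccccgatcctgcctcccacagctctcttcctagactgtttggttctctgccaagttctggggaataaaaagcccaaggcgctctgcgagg
Il33 second start: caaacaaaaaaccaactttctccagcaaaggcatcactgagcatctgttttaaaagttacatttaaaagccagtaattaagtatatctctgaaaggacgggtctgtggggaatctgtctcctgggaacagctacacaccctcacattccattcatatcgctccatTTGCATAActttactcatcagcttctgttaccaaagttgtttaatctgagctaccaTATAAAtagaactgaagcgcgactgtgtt
The second window has TATAAA at 29 bases before its start site and TTGCATAA (TTGCNNAA, 9.56% of all windows) at 85 bases, and the first has TATAAA only far from its start, at 203 bases.

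Fibroblasts held 89.5% and 70.7% of the Il33 UMIs. Their level was 37.1 CPM in mouse 1 and 32.0 CPM in mouse 2, 34.6 ± 3.58 (SD, n = 2), with a UMI in 8.18% and 6.81% of cells. Endothelium had 6.00 and 13.4 CPM, macrophages 0.66 and 0.15 CPM on 6 and 1 UMIs, and dendritic cells, T cells and neutrophils had none. Fibroblasts stood above endothelium in both mice, by 1.85 ± 0.32 on the log2 scale (adjusted p = 2.77e-07), and endothelium above macrophages by 4.24 ± 0.55 (adjusted p = 2.69e-11). T cells, at 0, were called below fibroblasts and endothelium, where counting gives at least 4.53-fold and at least 1.31-fold. Dendritic cells, also at 0, were called below fibroblasts, at least 1.57-fold by counting. The dendritic call was lost under DESeq2 (adjusted p = 0.103) and without the mouse as a block (0.0581). The call of T cells below endothelium was lost under DESeq2 (0.0997), without the block (0.0731), with stricter gates (0.125) and with dendritic cells left out of the fit (0.0715). Fibroblasts with at least 2 UMIs of Pi16 and Cd248 (1061 and 568 cells) had 38.3 and 32.9 CPM and the other fibroblasts 35.2 and 31.2 CPM, with no difference called (0.10 ± 0.18, adjusted p = 0.855).

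Within endothelium the Il33 level was highest in 2 small marked groups of cells. Cells with endocardial markers (Npr3 and Cytl1 summing to at least 2 UMIs, 38 and 40 cells) had 30.3 and 65.6 CPM on 2 and 5 UMIs, against 5.13 and 11.7 CPM in endothelium without endocardial or arterial markers, which includes the lymphatic-marked cells described next. The difference was 2.29 ± 0.63 on the log2 scale (adjusted p = 0.0431), 1 of the 2 members tested in a contrast that called 6% of all genes. It was not called by DESeq2 (adjusted p = 0.520), without the filter on low counts (0.258), without the mouse as a block (0.171) or with stricter gates (0.0821). Endothelial cells with at least 2 UMIs of Prox1 and Mmrn1, lymphatic markers, numbered 10 and 25. They held 4 Il33 UMIs in 4 cells of mouse 1 (241 CPM) and 3 in 1 cell of mouse 2 (64.2 CPM), and were not tested. None of them carried endocardial markers, and without them the remaining endothelium had 2.59 and 10.4 CPM on 4 and 20 UMIs and the endocardial difference was 2.64 ± 0.63 on the log2 scale (adjusted p = 0.00857), a choice made after seeing the data. Fibroblast markers (4 of 6 detected, Pdgfra and Col1a1 at 0) summed to 529.9 and 276 CPM in the endocardial-marked cells, against 44.2 and 51.7 CPM in endothelium without endocardial or arterial markers. Endothelial markers (6 of 6) summed to 7630 and 7232 CPM against 30987 and 30901 CPM. Their part in the Il33 difference was not tested.

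The receptor genes share a locus: Il1r2, Il1r1, Il1rl2, Il1rl1, Il18r1 and Il18rap follow each other on the plus strand over 477.6 kb of chr1:40074079-40551705. Il1rap is separate, on chr16:26581704-26730117. Of the 6 classes, the highest level was in neutrophils for Il1r2, in fibroblasts for Il1r1, in dendritic cells for Il1rl1 and in T cells for Il18r1.

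Il1r1, the signalling receptor of IL-1, was captured in stromal cells. Fibroblasts had 69.1 CPM in mouse 1 and 50.5 CPM in mouse 2, 59.8 ± 13.2 (SD, n = 2), with a UMI in 17.2% and 11.3% of cells. Endothelium had 58.2 and 18.7 CPM, 38.5 ± 28.0, dendritic cells 24.5 and 21.5 CPM on 1 and 2 UMIs, T cells 0 and 5.42 CPM and macrophages 1.32 and 0.30 CPM. Neutrophils had no UMI, which in the 72 cells of mouse 1 allows up to 39.4 CPM, the upper limit of the Poisson interval. Fibroblasts exceeded macrophages by 6.04 ± 0.31 on the log2 scale (adjusted p = 2.60e-37) and endothelium exceeded them by 5.25 ± 0.35 (adjusted p = 1.05e-27). Dendritic cells were called above macrophages on 3 UMIs (-4.49 ± 1.35 for macrophages minus dendritic cells, adjusted p = 0.0230), a call lost without the mouse as a block (0.215) and with stricter gates (0.127). Fibroblasts were above endothelium in both mice by 0.79 ± 0.22 (adjusted p = 0.00154), less than the 2-fold limit. Cells of the mural gate (Rgs5, Kcnj8 and Vtn summing to at least 3 UMIs, 69 and 45 cells) had 113 and 50.3 CPM on 11 and 3 UMIs. No difference was called between the fibroblast subsets: 71.4 and 44.5 CPM with Pi16 and Cd248, 65.3 and 56.3 CPM without (-0.04 ± 0.14, adjusted p = 0.936). In endothelium the endocardial-marked cells had 15.1 and 13.1 CPM on 1 UMI each, against 60.2 and 18.8 CPM without endocardial or arterial markers, and the difference did not pass (-1.65 ± 0.94, adjusted p = 0.408).

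The endothelial level of Il1r1 was 3.12-fold higher in mouse 1 than in mouse 2 (counting interval 2.13 to 4.64), and the fibroblast level 1.37-fold (1.14 to 1.65). Cells just inside the endothelial gate (exactly 2 marker UMIs) had 57.7 CPM of Il1r1 over both mice and cells just outside it (1 marker UMI) 38.2 CPM. At the macrophage gate, cells with 15 to 19 C1q UMIs had 143 CPM of Il1b and cells with 10 to 14 had 86.8 CPM.

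Il1rap, the chain shared by the IL-1 and IL-33 receptors, was low in every large class. Fibroblasts had 14.2 and 14.5 CPM, 14.3 ± 0.218 (SD, n = 2), macrophages 6.06 and 3.65 CPM, endothelium 5.40 and 1.92 CPM, dendritic cells 0 and 10.8 CPM (1 UMI) and T cells 4.94 (1 UMI) and 0 CPM. The neutrophils of mouse 1 had 149 CPM on 14 UMIs and those of mouse 2 none. Fibroblasts exceeded macrophages by 1.47 ± 0.32 on the log2 scale (adjusted p = 2.73e-05) and endothelium by 2.06 ± 0.46 (adjusted p = 7.03e-05). Fibroblasts and dendritic cells were not separated (adjusted p = 0.641), nor were macrophages and endothelium (adjusted p = 0.340). No Il1rap difference was called between fibroblast subsets (-0.27 ± 0.28, adjusted p = 0.712), so 0 of the 3 members tested there were called, beside 2.26% of all genes. At an unadjusted level none of these 3 members reached 0.05 either, and DESeq2 called none. Il1r1 and Il1rap were captured together in 17 and 9 fibroblasts and in 1 and 0 endothelial cells.

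**Figure D4:**
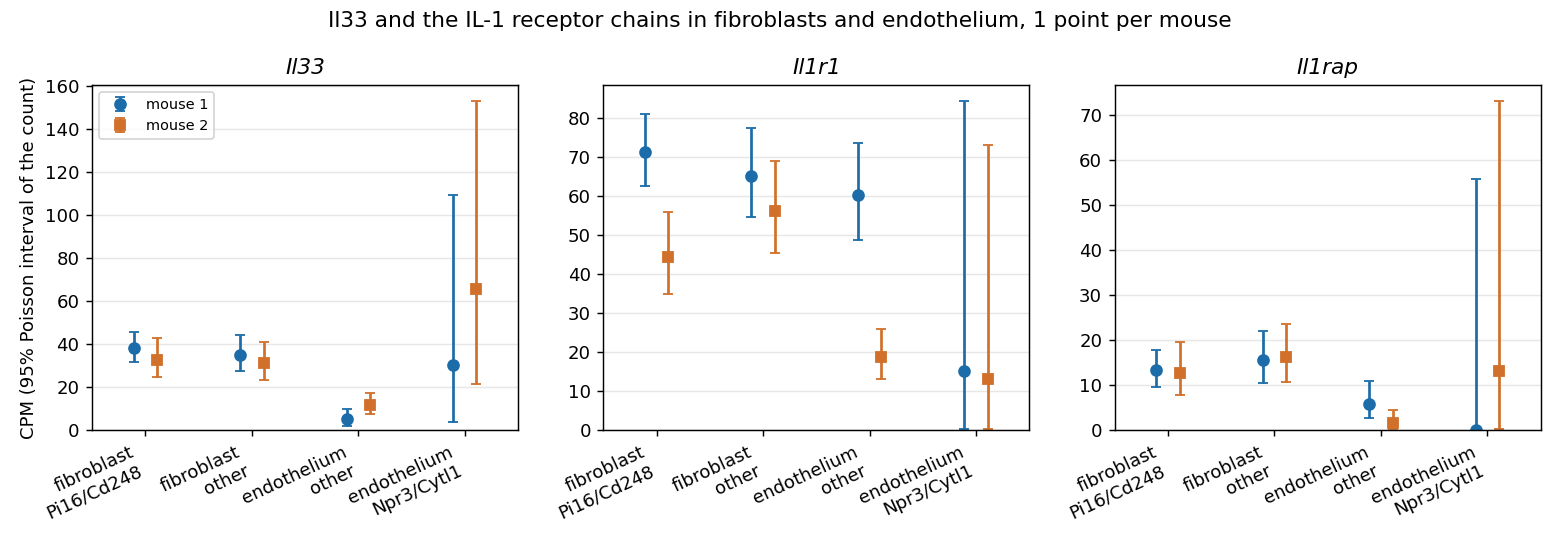
CPM (vertical, linear axis from 0) of Il33, Il1r1 and Il1rap in 2 fibroblast and 2 endothelial groups (other endothelium has neither endocardial nor arterial markers), with a circle for mouse 1, a square for mouse 2 and bars for the 95% Poisson interval of the count. The intervals of the fibroblast groups overlap for each gene, Il1r1 in endothelium differs between the mice (60.2 and 18.8 CPM), and the endocardial-marked group has wide intervals on few counts.

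Il1rl1, the gene of ST2, lies on chr1:40429570-40465415 and is known for a distal and a proximal start site whose use differs between cell types, and for a short transcript that encodes soluble ST2. Transcript-end counts do not assign a molecule to a start site. The windows before both RefSeq starts are shown for that reason (GRCm38.p6, plus strand, chr1:40429320-40429569 distal and chr1:40439379-40439628 proximal, capitals as above).
Il1rl1 distal start: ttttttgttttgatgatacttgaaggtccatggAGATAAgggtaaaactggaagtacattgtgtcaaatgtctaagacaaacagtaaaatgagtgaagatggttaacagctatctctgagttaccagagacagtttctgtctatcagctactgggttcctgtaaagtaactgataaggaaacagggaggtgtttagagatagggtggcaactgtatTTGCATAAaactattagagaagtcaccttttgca
Il1rl1 proximal start: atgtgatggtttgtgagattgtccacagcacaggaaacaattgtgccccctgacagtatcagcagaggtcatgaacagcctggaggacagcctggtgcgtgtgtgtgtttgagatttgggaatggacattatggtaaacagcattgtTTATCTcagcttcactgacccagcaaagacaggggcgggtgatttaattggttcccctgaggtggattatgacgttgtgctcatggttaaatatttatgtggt
AGATAA, found in 9.99% of all windows, occurs in both, at 217 bases before the distal start and as its reverse complement TTATCT at 103 bases before the proximal start. The distal window also has TTGCATAA at 34 bases. No TATAAA was found in either.

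Macrophages held 79.5% and 79.8% of the Il1rl1 UMIs. Their level was 10.7 CPM in mouse 1 and 29.9 CPM in mouse 2, 20.3 ± 13.6 (SD, n = 2), with a UMI in 3.17% and 7.88% of cells and never more than 2 in a cell. Dendritic cells had 48.9 and 75.3 CPM on 2 and 7 UMIs, T cells 4.94 and 16.3 CPM on 1 and 3 UMIs, fibroblasts 0.95 and 0.60 CPM and endothelium 0.60 and 0.96 CPM. Macrophages exceeded fibroblasts by 4.45 ± 0.44 on the log2 scale (adjusted p = 9.10e-17) and endothelium by 4.75 ± 0.57 (adjusted p = 1.03e-12). Dendritic cells, macrophages and T cells, in that order, were not separated from their neighbours (adjusted p = 0.312 and 0.290). T cells were called above fibroblasts (adjusted p = 0.0165) and endothelium (adjusted p = 0.0181) on 4 UMIs, and neither call held with stricter gates (0.569 and 0.358) or without the mouse as a block (0.0561 and 0.0771). Cells outside the 6 gates with Gata3 and with Il7r or Rora, a panel for type 2 innate lymphoid cells, numbered 6 and 12. They had the highest Il1rl1 level of the groups described, 239 CPM on 2 UMIs and 654 CPM on 16 UMIs, in 2 of 6 and 10 of 12 cells.

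No difference in Il1rl1 was called between the macrophage subsets. Timd4/Lyve1 cells had 11.004 and 33.2 CPM, Ccr2 cells 13.2 and 24.5 CPM and cells with neither 8.02 and 27.3 CPM (adjusted p from 0.406 to 0.915). Between the animals, macrophages of mouse 2 had 2.80 times the Il1rl1 level of mouse 1 (counting interval 2.19 to 3.61). The ratio was 3.02 (2.18 to 4.198) in Timd4/Lyve1 cells, 1.85 (0.637 to 5.74) in Ccr2 cells and 3.40 (2.09 to 5.78) in cells with neither. Il1rl1 was captured in 94 and 186 macrophages and Il1rap in 55 and 23, and 2 macrophages of each mouse held both. No fibroblast held both Il33 and Il1rl1, but only 5 and 2 fibroblasts held Il1rl1 at all. Both pairs were captured too sparsely to show whether the genes share cells.

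Over the macrophage subset contrasts, 3 of 6 members tested were called for Timd4/Lyve1 against Ccr2 (6.38% of all 9893 genes), 2 of 6 for Timd4/Lyve1 against neither (2.64%) and 0 of 6 for Ccr2 against neither (2.78%). The last contrast had 1 member, Il1b, with an adjusted p below 0.05 but under 2-fold. Il1b and Il1rn had unadjusted p below 0.05 there (0.00124 and 0.00694), and DESeq2 called none. The other 4 members (Il1a, Il33, Il1r1 and Il18r1) did not pass the filter on low counts in macrophages.

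Il18r1, the ligand-binding chain of the IL-18 receptor, was highest in T cells among the 6 classes. Both mice gave nearly the same level, 59.3 CPM on 12 UMIs in 9 of 101 cells and 59.6 CPM on 11 UMIs in 9 of 86 cells. Macrophages had 0.88 and 1.22 CPM, endothelium 0.60 and 0.96 CPM, fibroblasts 2.08 and 0.60 CPM and dendritic cells 0 and 21.5 CPM (2 UMIs of 1 cell). T cells exceeded macrophages by 5.58 ± 0.69 on the log2 scale (adjusted p = 1.82e-11), fibroblasts by 5.14 ± 0.70 (adjusted p = 3.97e-10) and endothelium by 6.04 ± 0.85 (adjusted p = 1.51e-09). Dendritic cells were next in the order and were not separated from T cells (adjusted p = 0.349). T cells with Cd8a or Cd8b1 (9 and 20 cells) had 151 and 88.6 CPM on 4 UMIs each. Cells outside the 6 gates that passed a natural killer gate (11 and 14 cells) had 203 and 111 CPM on 4 and 3 UMIs. Il18rap, the partner chain, named for its role and not by the rule for pathway genes, had 34.6 and 43.4 CPM in T cells and 152 and 185 CPM in the natural killer gate. The 11 Il18r1 UMIs in fibroblasts of mouse 1 came from 6 cells, 5 of them with 2 UMIs, and all 6 lay outside the Pi16 and Cd248 gate. Pooled over both mice, the T cell level of Il18r1 was 58.2-fold that of macrophages (counting interval 29.4 to 118), while Il18 itself had no UMI in T cells.

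Pathway genes were read from 4 lists. Of 20 genes for processing and release (caspases, inflammasome sensors and pore proteins) 14 were tested, and 9 were higher and 1 lower in macrophages than in fibroblasts (15.1% and 23.5% of all genes), with a median log2 difference of 2.80 beside -0.27 over all genes. Against endothelium 9 were higher in macrophages and 0 lower (13.5% and 21% of all genes, median 1.97 beside -0.24). Pycard, the adaptor of inflammasomes, had 213 and 142 CPM in macrophages, 22.3 and 32.6 CPM in fibroblasts and 17.4 and 25.9 CPM in endothelium. Casp8, a caspase that can also cleave IL-1β, had 92.0 and 98.0 CPM in macrophages, 13.8 and 14.5 CPM in fibroblasts and 76.8 and 81.5 CPM in endothelium. Txnip, a binding partner of NLRP3, was lower in fibroblasts (179 and 390 CPM) than in endothelium (628 and 597 CPM).

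Of 25 genes of signal transmission 24 were tested. In macrophages 5 were higher and 2 lower than in fibroblasts (15.1% and 23.5% of all genes, median 0.01), and 4 higher and 3 lower than in endothelium (13.5% and 21% of all genes, median -0.02). Nfkbia, the inhibitor of NF-kB that NF-kB itself induces, was highest in endothelium, 1550 and 854 CPM against 389 and 262 CPM in macrophages and 562 and 262 CPM in fibroblasts. Nfkbiz, Mapk14 and Ikbkb were called higher in macrophages than in fibroblasts, by 1.57, 1.78 and 1.40 on the log2 scale. Among 15 other family members 4 were tested. Sigirr, an inhibitory receptor of the family, had 59.4 and 61.8 CPM in endothelium, 0.99 and 1.06 CPM in macrophages and 0.38 and 1.51 CPM in fibroblasts, and was called in both endothelial contrasts.

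Genes known to respond to IL-1 were led by fibroblasts. Of 22 listed, 21 were in the tables and 16 were tested, and 10 were higher in fibroblasts than in macrophages and 1 lower (23.5% and 15.1% of all genes, median -3.02 for macrophages minus fibroblasts, beside -0.27 over all genes), and 9 were higher and 3 lower in fibroblasts than in endothelium (15.6% and 14.3%, median 2.45 beside 0.02). Mmp3, a matrix protease, had 340 and 149 CPM in fibroblasts, 5.07 and 1.82 CPM in macrophages and 2.40 and 1.92 CPM in endothelium. Tnfaip6, a hyaluronan-binding protein, had 152 and 87.0 CPM in fibroblasts and 1.21 and 0.46 CPM in macrophages. Csf1, the macrophage growth factor, had 109 and 60.7 CPM in fibroblasts and 154 and 50.8 CPM in endothelium, against 3.08 and 2.28 CPM in macrophages. In macrophages 5 of the 16 were higher and 7 lower than in endothelium (13.5% and 21% of all genes, median -0.95 beside -0.24). Ccl7, a monocyte chemokine, and Cebpb were among those higher in macrophages, by 3.95 and 3.71 on the log2 scale.

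The same list separated the 2 animals. Among genes with at least 20 UMIs in a class and a UMI in each mouse, 16 of 16 responsive genes were higher in mouse 1 in fibroblasts, 12 of them at least 2-fold, where 2.76% of all 11010 genes were 2-fold higher in mouse 1. The median log2 ratio of mouse 1 to mouse 2 was 1.59 for the list and -0.07 for all genes. In endothelium 10 of 11 were higher in mouse 1, 7 at least 2-fold (2.75% of all genes), with a median of 1.31 beside -0.04. In macrophages 12 of 12 were higher, 5 at least 2-fold (2.9%), with a median of 0.77 beside -0.05. Ccl2 had 1065 and 261 CPM in fibroblasts and 109 and 17.7 CPM in endothelium, Cxcl1 478 and 145 CPM in fibroblasts, and Icam1 456 and 128 CPM in endothelium. Nos2 in endothelium went the other way, at 16.2 and 35.0 CPM. The immediate-early genes Fos, Jun, Atf3 and Egr1, chosen after these values were seen because tissue dissociation is known to induce them, summed to 2203 and 1836 CPM in fibroblasts, 1458 and 1855 CPM in endothelium and 2702 and 2689 CPM in macrophages. Their summed ratio of mouse 1 to mouse 2 was 1.20, 0.786 and 1.005 in these classes. Atf3, the least counted of them, was higher in mouse 2 in each class, with ratios of 0.487, 0.389 and 0.454. Ratios of Fos, Jun and Egr1 ran from 1.062 to 1.405 in fibroblasts, 0.736 to 0.952 in endothelium and 0.934 to 1.053 in macrophages. Mouse 1 was also the animal with 72 rather than 2 neutrophils. The neutrophil gene S100a8 had 52.2 and 1.51 CPM in fibroblasts, 66.6 and 2.40 CPM in endothelium and 59.3 and 6.69 CPM in macrophages, and Lcn2, in the responsive list, is also a neutrophil gene. The parts of neutrophil RNA and of tissue dissociation in these differences were not tested. With 1 animal and 1 library on each side there is no test, many of these genes answer to stimuli other than IL-1, and animal and library cannot be told apart.

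**Figure D5:**
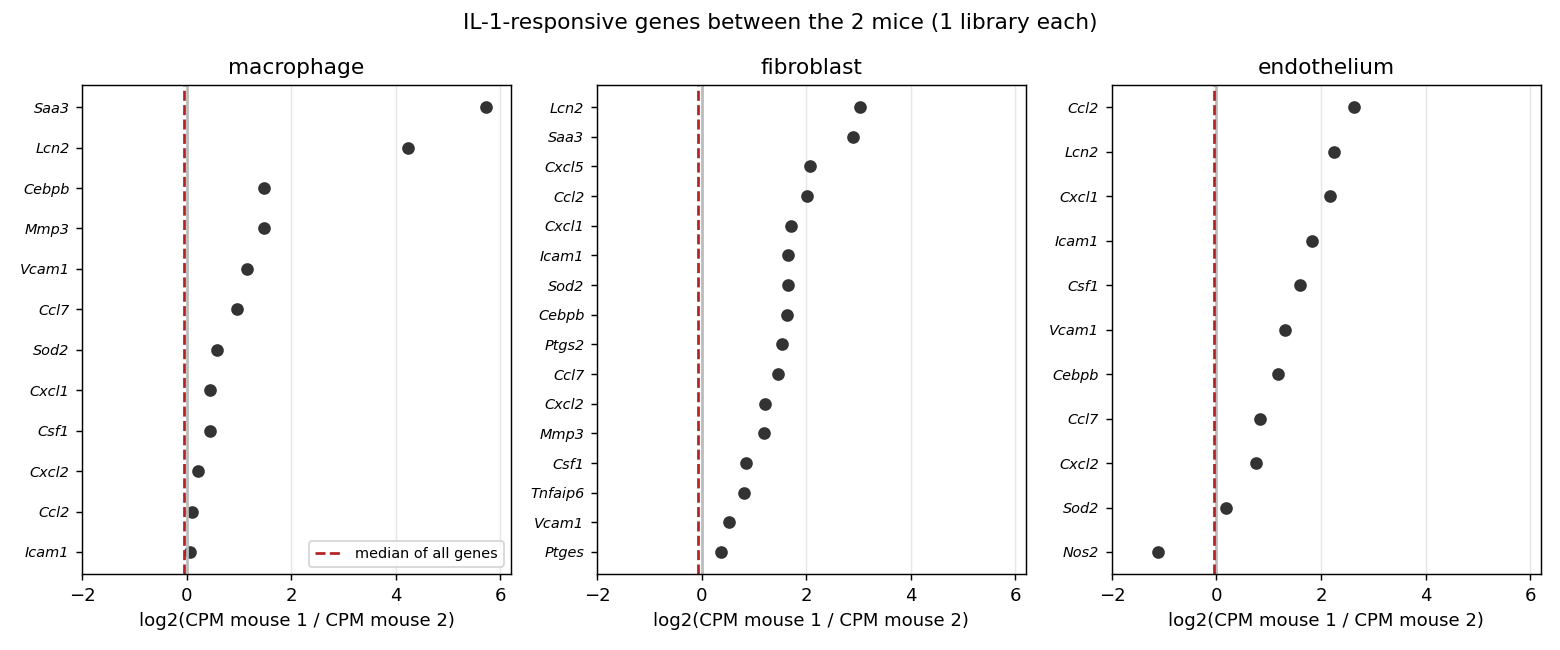
Each point is an IL-1-responsive gene (vertical) with at least 20 UMIs in the class, placed at the log2 ratio of its CPM in mouse 1 to that in mouse 2 (horizontal), and the dashed line is the median of all genes in the class. All 16 points in fibroblasts and all 12 in macrophages lie right of 0, and in endothelium Nos2 alone lies left of it.

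Genes with a pattern most like that of each member were taken by Pearson's r of log2(CPM + 10) over the 10 sums of the 5 classes and 2 mice. These points share libraries, and the dendritic sums rest on few cells, so r is a description only. For Il18r1 the nearest were Il7r, Ltb and Sit1 (r = 0.997, 0.997 and 0.995), all highest in T cells. For Il33 they included Gpc4 and Adm (0.995 and 0.993), highest in fibroblasts, and for Il1rn Tlr13, Npl and Vsig4 (0.997, 0.984 and 0.983), highest in macrophages. For Il1b they were Ppfia4, Nfam1 and 1600010M07Rik (0.993, 0.990 and 0.989), for Il18 Mmp12, Cox6b2 and Specc1 (0.989, 0.988 and 0.983), for Il1r2 Spint1, Sirpb1b and Clec4g (0.983, 0.972 and 0.968) and for Il1rl1 Ciita, Irf4 and Ms4a4c (0.990, 0.968 and 0.961), all highest in dendritic cells. Il1r1 (Ybx3, Phb and Tuba1a, 0.933, 0.929 and 0.913) and Il1rap (Hspa13, Rer1 and Vma21, 0.970, 0.937 and 0.928) had nearest genes that were highest in fibroblasts. Il1a had too few UMIs for this.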

How the data were processed

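Both tables hold raw UMI counts per gene and cell barcode, as deposited. Per the submitters' processing notes, FastQC, Cell Ranger 2.2.0 and mm10 were used, and how barcodes were selected is not given in the sources used here. The tables held 7732 and 6367 barcodes with 21355383 and 15174548 UMIs over 27998 genes. Barcodes with at least 500 UMIs, at least 300 detected genes and at most 10% mitochondrial UMIs were kept (719 and 432 removed). Scrublet, run per mouse in scanpy 1.11.5 (Python 3.11.15), removed 6.50% and 4.18% of the rest as doublets, which left 6557 and 5687 cells with a median of 2533 and 2194 UMIs.

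Cells were gated on marker UMIs, counts were summed per class and mouse, and the sums were tested in edgeR 4.0.16 (R 4.3.3) by the quasi-likelihood test with TMM scaling, filterByExpr and the mouse as a block, with Benjamini-Hochberg adjustment over all genes tested. The pairing comes from the design, since each mouse gave every class. Neutrophils (2 cells in mouse 2) entered no test. Alternatives were DESeq2 1.42.0, RLE scaling, no filter on low counts, no block, stricter gates, no doublet removal, at least 1000 UMIs per cell, no fold limit, each mouse left out, and, chosen after seeing the data, Pi16 alone as the fibroblast gate, a fit without dendritic cells and endothelial subsets without lymphatic-marked cells. In simulated data, 95.1% of 4-fold changes were recovered for macrophages against dendritic cells (10681 genes, 3.94% of calls false), 91.5% for Timd4/Lyve1 against Ccr2 macrophages (9822 genes, 4.95% false), 76.4% for the fibroblast subsets (9640 genes, 1.16% false) and 90.7% for the endothelial subsets (7242 genes, 1.55% false). Only genes well counted in the smallest sum were changed, a limit that no member reached in the fits of all classes and of endothelial subsets. The simulated counts had a fixed dispersion and no mouse effect. These shares therefore do not describe the recovery of sparsely counted members.

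The 10 members are all described. From each pathway list, up to 3 genes per contrast of the 3 large classes were eligible to be named, those with the largest called change that reached 50 CPM or more in both mice in the higher class. Other genes named with values, such as Ccl2, Cxcl1, Icam1, Nos2 and Il18rap, were chosen after their values were seen. Members, gates and lists were chosen with earlier results of these data known. Promoter windows come from RefSeq (GRCm38.p6). Of the genes that the rule for like patterns gives for Il33, 1 is not reported here.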

Additional observations from a re-analysis of the deposited data

How the results depend on the processing

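No member's call changed direction under any alternative run. Members were called 40 times over the 5 classes, and 32 to 41 times under the other settings listed among the processing steps. With dendritic cells left out of the fit, a choice made after seeing the data, 25 calls were made where 27 had been made in the same contrasts. In macrophage subsets the 5 calls became 3 under DESeq2, where 1 was lost (Il1rn) and 1 (Il1r2, Timd4/Lyve1 minus neither) had no adjusted p, and 2 without the mouse as a block. In endothelial subsets the 1 call, Il33, became 0 under DESeq2, without the filter on low counts, without the block and with stricter gates, and stayed 1 without lymphatic-marked cells. In fibroblast subsets the 0 calls became 1 without the filter on low counts, namely Il18r1 (-6.13 for Pi16/Cd248 minus other on the log2 scale, adjusted p = 0.0151, edgeR), a gene with too few counts to pass that filter.

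Of the 46 calls, 34 held and 12 were lost without the block, 36 held and 8 were lost with stricter gates, and 40 held and 5 were lost under DESeq2. The 2 calls of Il1rn in macrophages against fibroblasts and endothelium were not tested with stricter gates or with at least 1000 UMIs per cell, and all other 44 calls held at that depth. All 46 held under RLE scaling, without doublet removal and without the fold limit. With either mouse left out the direction stayed the same for 40, 5, 0 and 1 of the calls in the 4 fits, with no test on 1 mouse. A ratio could be formed for 39 calls without mouse 1 and 35 without mouse 2, and the other calls had a class at 0. Of the ratios formed, 15 and 10 lay further from the fitted value than the SD between the mice. These are CPM ratios without TMM scaling, which the fitted values include, so the 15 and 10 do not show the effect of a mouse alone. Counts over all genes moved as well: macrophage subsets gave 1167 calls against 717 under DESeq2, 360 without the block and 2976 without the fold limit, fibroblast subsets 219 against 81, 8 and 867, and endothelial subsets 483 against 222 under DESeq2 (324 without the block).

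With cells thinned to 1000 UMIs, the share with a UMI fell to 3.93% and 7.26% for Il1b and 1.22% and 3.11% for Il1rl1 in macrophages, and to 2.93% and 3.00% for Il33 and 7.10% and 4.66% for Il1r1 in fibroblasts. Cell number limits the rare classes: 9 and 25 dendritic cells and 2 neutrophils of mouse 2 leave levels that rest on a few UMIs.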
